A study of Rattus norvegicus with 4 samples.

Results

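miR-199a-5p, miR-199a-3p and miR-214 are processed from 2 neighbouring hairpins that mesenchymal cells transcribe together. They were chosen by name, as the rows of the array files called rno-miR-199a-5p, rno-miR-199a-3p and rno-miR-214, and all 3 were found among the 350 rat miRNAs on the array. The samples were gracilis, a thigh muscle, from male Sprague-Dawley rats: 2 from muscle made ischemic for 4 h and then reperfused, and 2 from sham-operated controls. The sample labels give 4 h of reperfusion but the design text states 24 h, so the reperfusion time is uncertain. No genetic change or further agent is named for either group, and nothing in the labels says whether a sample is 1 animal or a pool. Each RNA was labelled with Cy3 and hybridised alone, and the values are background-subtracted total fluorescence signals per miRNA, in the scanner's units.

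miRNAs are short RNAs that guide silencing complexes to partly complementary messenger RNAs, mainly through the bases near their 5′ end called the seed. The miR-199a-2 and miR-214 hairpins lie in Dnm3os, a non-coding RNA transcribed antisense to the dynamin gene Dnm3, which in mouse embryos is active in mesenchyme. In fibrotic tissue these miRNAs are known as products of activated fibroblasts. miR-199a-5p lowers caveolin-1 in human lung fibroblasts and Hif1a, the oxygen-regulated subunit of hypoxia-inducible factor, in rat cardiac myocytes. miR-199a-3p comes from the other arm of the same hairpin and targets mTOR and MET in human liver cancer cells. miR-214 lowers the histone methyltransferase Ezh2 in differentiating mouse muscle cells, and mouse hearts that lack it tolerate ischemia-reperfusion less well. Fibroblasts and myogenic cells are thus both known sources, and in whole muscle fewer cells of a type and less RNA per cell cannot be told apart.

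The mature sequences are shown because the 3 miRNAs have different seeds although they share a locus, and because the 2 arms of miR-199a did not vary together. They are RefSeq's, in the rat assembly GRCr8, with the seed (bases 2 to 8) in capitals.
rno-miR-199a-5p: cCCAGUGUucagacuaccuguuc
rno-miR-199a-3p: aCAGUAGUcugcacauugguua
rno-miR-214-3p: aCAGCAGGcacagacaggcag
The array's name for the last of these is miR-214 without an arm, which in the miRBase names of that period meant the 3p arm. Each of the 3 seeds occurred once among the 693 mature names in the RefSeq table used. In GRCr8 the hairpin of Mir199a2 (gene ID 100314245) is at chr13:77116225-77116334 and that of Mir214 (gene ID 100314055) at chr13:77121645-77121752, both on the plus strand and 5.31 kb apart. Both lie within the span of the protein-coding gene Dnm3 on the minus strand, at chr13:76892381-77371346. Mir199a1, a second hairpin that yields the same mature miRNAs, and Mir199b are the other known sources of miR-199 sequences in mammals.

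The 4 arrays differed in brightness and in content, which touches every value below. Over the 78 miRNAs detected on all arrays the median signal was 223 and 34.8 units on ischemia-reperfusion replicates 1 and 2, against 558 and 281 units on sham replicates 1 and 2. All 5 skeletal muscle marker miRNAs were below detection on ischemia-reperfusion replicate 2, with a summed signal of 11.6 units, against 90702 units on ischemia-reperfusion replicate 1 and 113072 to 211933 units in the shams. Of 7 epithelial miRNAs, 6 were detected on ischemia-reperfusion replicate 2 and 2, miR-205 and miR-200c, on replicate 1, against none on either sham array. For 3 of the 261 detected signals above 100 units, signal and scanner error did not match as they did elsewhere: the error was 1.11% of the signal for miR-205 and 2.02% for miR-200c on ischemia-reperfusion replicate 1, and 76.9% for miR-21 on sham replicate 1, against 5.92% to 11.6% for all the others. The signals of the miR-199a and miR-214 cluster are not among these 3, and results that rest on one of them are given with that limit. By contrast, ischemia-reperfusion replicate 1 and sham replicate 2 were nearly alike over the 171 miRNAs both detected (Pearson r = 0.995, across miRNAs, which are not independent). Ischemia-reperfusion replicate 2 thus goes against its label as muscle, and the log2 differences of the 3 miRNAs and their ranks are given with and without it. Values without it keep the scaling set on all 4 arrays and the 78 miRNAs detected on all of them. Shares of pairs, nearest miRNAs and the share of miRNAs without overlap between groups are given with all 4 arrays only. The other samples carried the markers of muscle. The part of these differences in the results below was not tested.

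miR-199a-5p and miR-214 gave moderate signals on every array. miR-199a-5p gave 132 and 45.2 units on ischemia-reperfusion replicates 1 and 2, against 322 and 184 units on sham replicates 1 and 2, with scanner errors of 8.58% to 9.72% of the signal. Its signal was lower on both ischemia-reperfusion arrays than on either sham array. miR-214 gave 77.3 and 32.6 units on ischemia-reperfusion replicates 1 and 2, against 234 and 99.98 units on the sham arrays, with scanner errors of 7.53% to 10.6%. It followed the same order: sham replicate 1 was brightest and ischemia-reperfusion replicate 2 dimmest. These are signals before any scaling, and 76.7% of the 159 miRNAs tested were likewise lower on both ischemia-reperfusion arrays than on both sham arrays, which makes it the order of most miRNAs. All 3 miRNAs were called detected on all 4 arrays, and each signal was at least 9.46 times its scanner error.

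miR-199a-3p did not follow that order. It gave 130 and 152 units on ischemia-reperfusion replicates 1 and 2, against 1444 and 148 units on sham replicates 1 and 2, with scanner errors of 7.43% to 7.61%. Sham replicate 1 stood alone and the other 3 arrays lay close together, so the groups overlapped. Ischemia-reperfusion replicate 2, the array with the lowest median signal, was here slightly brighter than ischemia-reperfusion replicate 1 and sham replicate 2. Averages per group were 141 ± 15.4 units after ischemia-reperfusion and 796 ± 916 units in sham muscle (SD, n = 2 each), so the sham SD exceeded the sham mean.

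**Figure D1:**
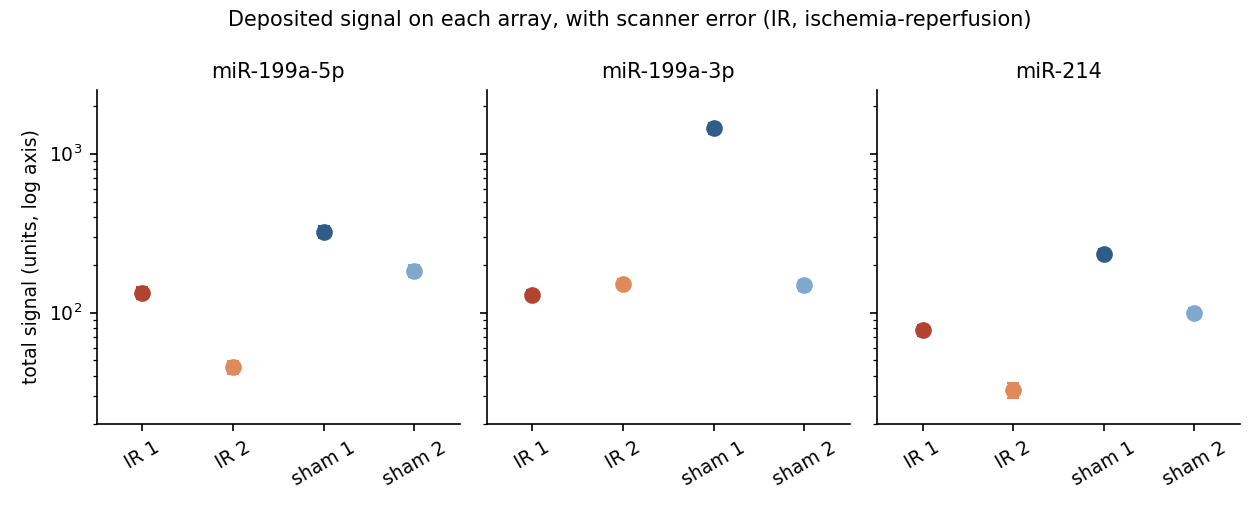
Deposited total signal (log axis, scanner units) of the 3 miRNAs on each of the 4 arrays (IR, ischemia-reperfusion), with the scanner software's error as bars. miR-199a-5p and miR-214 descend in the same order, while miR-199a-3p stands at 1444 units on sham replicate 1 and between 130 and 152 units on the other arrays.

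To compare groups, signals were expressed relative to the upper quartile (75th percentile) of the 78 miRNAs that every array detected. Scaled levels are given as a percentage of that percentile, and differences as log2 of ischemia-reperfusion over sham. Scaled miR-199a-5p stood at 13.3% and 49.1% on ischemia-reperfusion replicates 1 and 2, against 9.53% and 15.7% on sham replicates 1 and 2. Ischemia-reperfusion replicate 2 was the high one, and replicate 1 fell between the sham arrays. Its log2 difference was 1.06 ± 1.09 (limma SE, n = 2 per group), with a 95% interval from −1.76 to 3.88 and a limma adjusted p of 0.817. The difference turned to −1.65 without scaling and came to 0.12 when ischemia-reperfusion replicate 2 was left out.

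Scaled miR-214 stood at 7.77% and 35.5% on ischemia-reperfusion replicates 1 and 2, against 6.94% and 8.54% on sham replicates 1 and 2. Again replicate 1 lay within the sham range and replicate 2 far above it. The log2 difference was 1.11 ± 1.13 (limma SE, n = 2 per group), with a 95% interval from −1.81 to 4.02 and a limma adjusted p of 0.817. It was −1.61 without scaling and 0.0139 without ischemia-reperfusion replicate 2.

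Scaled miR-199a-3p stood at 13.1% and 165% on ischemia-reperfusion replicates 1 and 2, against 42.7% and 12.7% on sham replicates 1 and 2. Here 1 array of each group was high and the other low. The log2 difference was 1.00 ± 1.56 (limma SE, n = 2 per group), with a 95% interval from −3.04 to 5.03 and a limma adjusted p of 0.817. It turned to −1.72 without scaling and to −0.83 without ischemia-reperfusion replicate 2. It was 0.12 without sham replicate 2 and 1.87 without sham replicate 1.

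None of the 3 miRNAs passed the threshold of 0.05, and the scaled levels of the groups overlapped for each. Over all 159 miRNAs tested limma with Benjamini-Hochberg adjustment called 0, a percentage of 0. At an unadjusted p under 0.05 limma gave 2 (1.26%), miR-205 and miR-200c, neither of which belongs to the cluster. Both rest in part on ischemia-reperfusion replicate 1 signals that do not match their scanner errors, as given above. Neither sham array detected them, so they entered the test only through the group where they are high. Groups did not overlap for 25.2% of all tested miRNAs. A positive difference was found for 61.6% of all tested miRNAs with this scaling and for 9.43% without scaling. With this scaling the positive sign of the 3 members is thus also that of most miRNAs. With a percentile over all miRNAs, a median or quantile normalization, the 3 members stayed positive while the median difference of all tested miRNAs was negative. Each interval includes 0 and extends several-fold both ways, so neither a gain nor a loss of these miRNAs was shown.

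**Figure D2:**
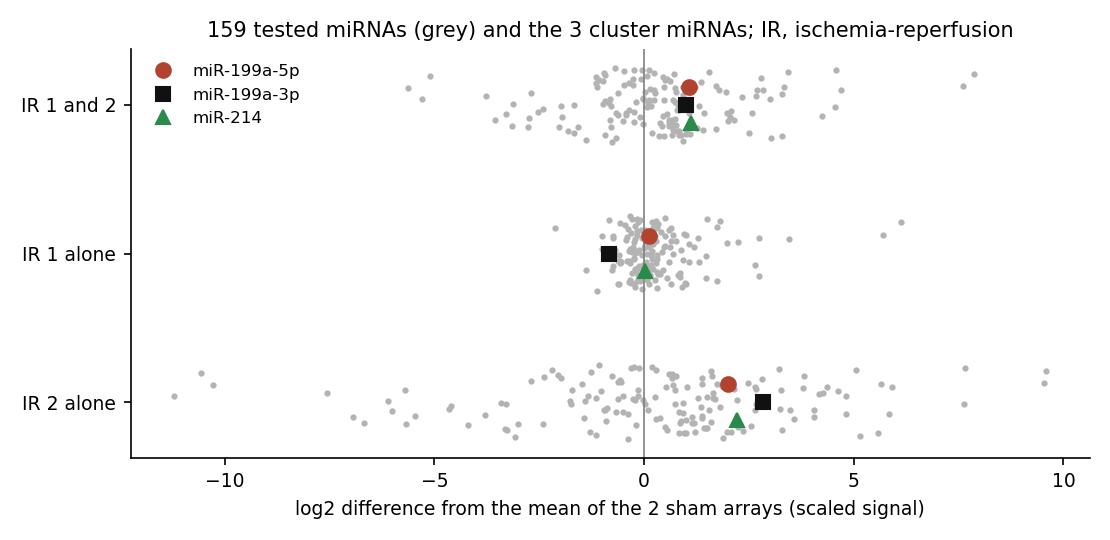
Log2 difference in scaled signal from the mean of both sham arrays, for all tested miRNAs (grey points, spread vertically to separate them) and for the 3 cluster miRNAs, with both ischemia-reperfusion (IR) arrays and with each alone. With replicate 1 alone miR-199a-5p and miR-214 lie at 0.12 and 0.0139 and miR-199a-3p at −0.83; with replicate 2 alone they lie at 2.00, 2.20 and 2.82.

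The error of the scanner was small beside the spread between replicates. Propagated to the log2 difference, the scanner's own errors came to 0.131 for miR-199a-5p, 0.108 for miR-199a-3p and 0.122 for miR-214. The standard error from the replicate SD was 7.71, 18.7 and 9.04 times as large, in the same order. Within the ischemia-reperfusion group the scaled level on replicate 2 was 3.69 times that on replicate 1 for miR-199a-5p, 12.6 times for miR-199a-3p and 4.56 times for miR-214. Between the sham arrays the gaps were 1.65-fold, 3.37-fold and 1.23-fold. The number of arrays and the disparity between replicates thus set the precision of these comparisons.

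Array by array, the comparison with ischemia-reperfusion replicate 1 and the one with replicate 2 gave different values. Ischemia-reperfusion replicate 1 minus sham replicate 2, the most alike pair of arrays, gave log2 differences of −0.24 for miR-199a-5p, 0.0420 for miR-199a-3p and −0.14 for miR-214. The scanner errors of these differences were 0.177, 0.153 and 0.156, so only miR-199a-5p differed by more than 1 scanner error. The median over the 171 miRNAs detected on both arrays was −0.11. Ischemia-reperfusion replicate 2 minus sham replicate 2 gave 1.64, 3.70 and 2.05 for the same 3 miRNAs, where the median over the 94 miRNAs detected on both was 1.35. The gain of miR-199a-5p lay above that of 55.3% of those 94, the gain of miR-214 above 69.1% and the gain of miR-199a-3p above 85.1%. Most miRNAs that replicate 2 still detected thus had a positive difference there, and miR-199a-5p was near the middle of them.

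A rank over all arrays needs no scaling. Among the 78 miRNAs detected on every array, the log2 difference of miR-199a-5p exceeded that of 57 of the other 77, that of miR-199a-3p exceeded 55 and that of miR-214 exceeded 59. Without ischemia-reperfusion replicate 2 these counts were 46 for miR-199a-5p, 3 for miR-199a-3p and 40 for miR-214, and without ischemia-reperfusion replicate 1 they were 56, 67 and 59. Without sham replicate 1 they were 46, 70 and 60, and without sham replicate 2 they were 56, 26 and 54. miR-199a-3p therefore ranged from near the lowest to near the top with the array left out, while miR-199a-5p and miR-214 stayed in the middle and upper ranks.

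Ratios of 2 miRNAs on 1 array do not depend on the scaling. Only their change between arrays is read here, since probes for different miRNAs differ in response. The ratio of miR-199a-5p to miR-214 was 1.71 and 1.38 on ischemia-reperfusion replicates 1 and 2, against 1.37 and 1.84 on sham replicates 1 and 2. The 2 miRNAs of neighbouring hairpins thus kept their proportion within 1.34-fold over arrays on which their signals varied 7.14-fold and 7.19-fold. On the log2 scale the ratio averaged 0.62 ± 0.22 after ischemia-reperfusion and 0.67 ± 0.30 in sham muscle (SD, n = 2 each). The difference was −0.0461, smaller than either SD, with a two-sided exact permutation p of 1 (the smallest that 2 against 2 allows is 0.333). The scanner error of each log2 ratio was 0.165 to 0.207, and the range of 0.42 over the arrays stands beside a scanner error of 0.238 for the difference between its ends. Of the 3003 pairs among the 78 miRNAs, 54 (1.80%) had a smaller range of their ratio, and the median range was 2.57 on the log2 scale. These shares of pairs are a description, with no test, since all pairs come from the same 4 arrays.

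The arms of the miR-199a hairpin did not keep their proportion. The ratio of miR-199a-3p to miR-199a-5p was 0.980 and 3.36 on ischemia-reperfusion replicates 1 and 2, against 4.48 and 0.807 on sham replicates 1 and 2. One array of each group was high and the other low, so the high and low arrays did not divide by group label. The log2 ratio averaged 0.86 ± 1.26 after ischemia-reperfusion and 0.93 ± 1.75 in sham muscle (SD, n = 2 each), a difference of −0.0674 with an exact permutation p of 1. The 5.55-fold range over the arrays was far beyond the scanner errors of the log2 ratios, which were 0.164 to 0.178. The ratio of miR-199a-3p to miR-214 divided the arrays in the same way: it was 1.68 and 4.65 on ischemia-reperfusion replicates 1 and 2, against 6.16 and 1.48 on sham replicates 1 and 2. Both ratios with miR-199a-3p were chosen after its values had been seen. Their ranges are ordinary on these arrays, where 47.4% of all pairs had a smaller range than the ratio of the arms and 36.8% a smaller range than that of miR-199a-3p to miR-214. Among the 13 other pairs of arms from 1 hairpin, matched by name, that both sham arrays detected, the log2 ratio moved between the sham arrays by at most 2.34 with a median of 1.27, against 2.47 for miR-199a. Between the ischemia-reperfusion arrays it moved by 1.78 for miR-199a and by up to 2.95 for the 3 other pairs that could be compared. The shift from sham replicate 2 to ischemia-reperfusion replicate 1 was 0.28 for miR-199a, and 14 of 21 other pairs moved less. The arms of miR-199a thus had the largest value between the sham arrays, but not in the other comparisons. That 2.47 carries a scanner error of 0.236, so it was not clearly above the 2.34 of miR-322* and miR-322. On sham replicates 1 and 2 miR-322* gave 11.4 and 4.99 units, with scanner errors of 6.48 and 2.41 units.

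**Figure D3:**
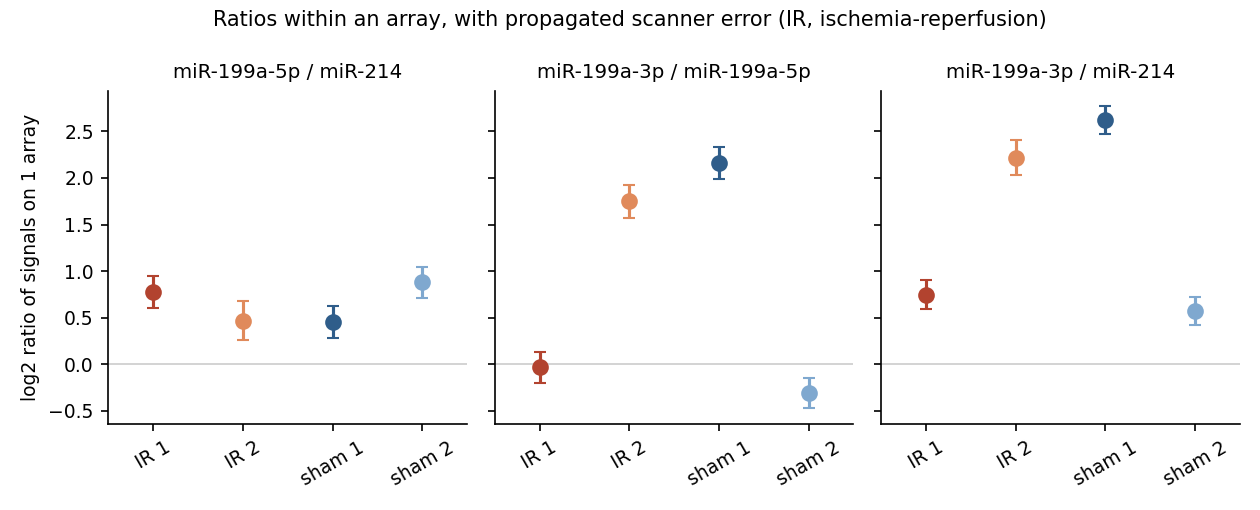
Log2 ratio of the signals of 2 miRNAs on the same array, with propagated scanner error as bars (IR, ischemia-reperfusion). miR-199a-5p over miR-214 stays within 0.42 on the log2 scale, while both ratios with miR-199a-3p are high on ischemia-reperfusion replicate 2 and sham replicate 1.

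The miRNAs most like the pair were found from levels centred on each miRNA's own mean over the 4 arrays. The root mean square difference on the log2 scale from the average of miR-199a-5p and miR-214 was used, over the 75 other miRNAs detected on every array. miR-30c-2*, the minor strand of a miR-30c hairpin, was nearest at 0.116, followed by miR-337, a miRNA of the imprinted Dlk1-Dio3 locus, at 0.120. Next came miR-20a of the proliferation-linked miR-17-92 cluster at 0.213 and miR-181b at 0.219, then miR-331 at 0.275 and miR-186 at 0.296. miR-337 gave 19.4 and 8.43 units on ischemia-reperfusion replicates 1 and 2, against 66.5 and 29.1 units on sham replicates 1 and 2. It thus had the same order of arrays as miR-214 at a lower signal. miR-199a-5p and miR-214 themselves differed by 0.186, and 2.43% of all 3003 pairs were closer. miR-199a-3p was at 0.985, with 45 of the 75 miRNAs nearer to the pair than it was. Its own nearest miRNA, looked up after its values were seen, was miR-181d, with 7.93 and 12.7 units on ischemia-reperfusion replicates 1 and 2, against 62.2 and 9.68 units on sham replicates 1 and 2.

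**Figure D4:**
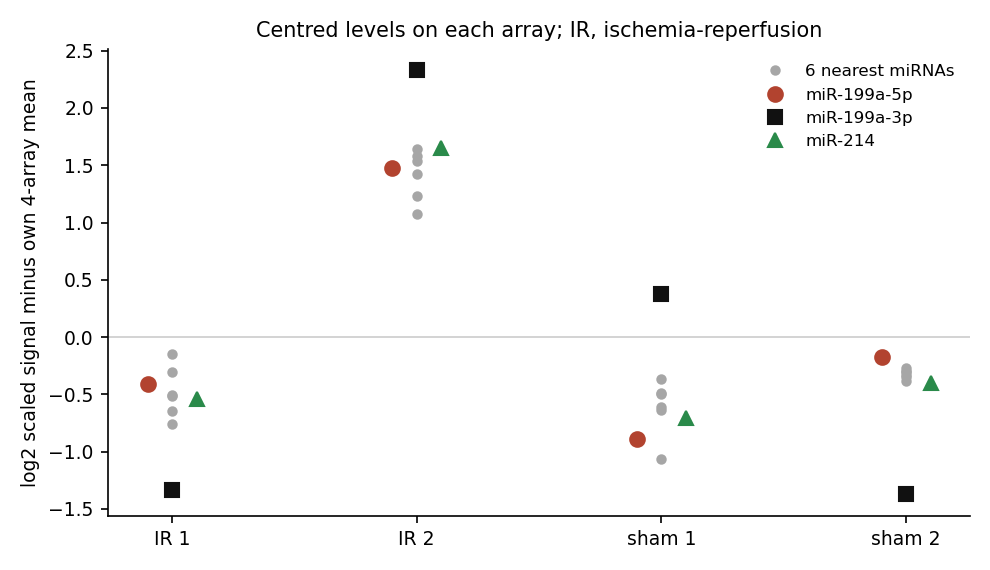
Log2 scaled signal of each miRNA minus its own mean over the 4 arrays (IR, ischemia-reperfusion), for the 3 cluster miRNAs and the 6 nearest to the average of miR-199a-5p and miR-214. The pair and its 6 neighbours are high on ischemia-reperfusion replicate 2 alone, whereas miR-199a-3p is at 2.33 there and at 0.38 on sham replicate 1.

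The 3 miRNAs were also set beside a list of 24 miRNAs known from fibroblasts and other mesenchymal cells or from fibrosis, the 3 included. All 24 were on the array, 23 could be tested, and 0 passed at an adjusted p or at an unadjusted p under 0.05. Differences were positive for 15 of the 23 (65.2%) and negative for 8, against 61.6% positive over all tested miRNAs. The list had a median log2 difference of 0.46, against 0.45 for the 159 tested miRNAs. The list's share and median were thus near those of all miRNAs. With ischemia-reperfusion replicate 1 alone 11 of the 23 (47.8%) were positive with a median of −0.0113, against 54.1% and 0.0561 over all tested miRNAs. Without scaling 1 of the 23 was positive, against 9.43% of all tested miRNAs.

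Within the list, miR-21, known to be induced in fibroblasts of injured and fibrotic organs, had the largest difference. It gave 592 and 3898 units on ischemia-reperfusion replicates 1 and 2, against 276 units with a scanner error of 212 units on sham replicate 1 and 628 units on sham replicate 2. Its log2 difference was 4.58 ± 2.31 (SE), with a 95% interval from −1.38 to 10.54. This value and its rank rest in part on the sham replicate 1 signal, which its error leaves poorly measured: without that array the difference was 3.23, and the 2 most alike arrays, ischemia-reperfusion replicate 1 minus sham replicate 2, gave 0.15. The collagen-regulating miR-29 family was mixed: miR-29a differed by −0.0261 ± 0.89 (SE), miR-29b by 0.0124 ± 0.89 and miR-29c by −0.85 ± 0.96. The smooth muscle miRNA miR-143 differed by 0.24 ± 0.90. Of the abundant others, miR-22 differed by −0.68 ± 0.94, miR-24 by 0.65 ± 0.96 and miR-27a by 0.42 ± 0.95. Levels were higher on each ischemia-reperfusion array than on either sham array for 2 of the 23, miR-21 and miR-140 (11.9% of all tested miRNAs did so), and lower for 4, miR-22, miR-27b, miR-29c and miR-99a (13.2%). Neither of the first 2 is firm, since ischemia-reperfusion replicate 2 did not detect miR-140 and the sham replicate 1 signal of miR-21 has the error given above. Neither count includes a miRNA of the miR-199a and miR-214 cluster.

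**Figure D5:**
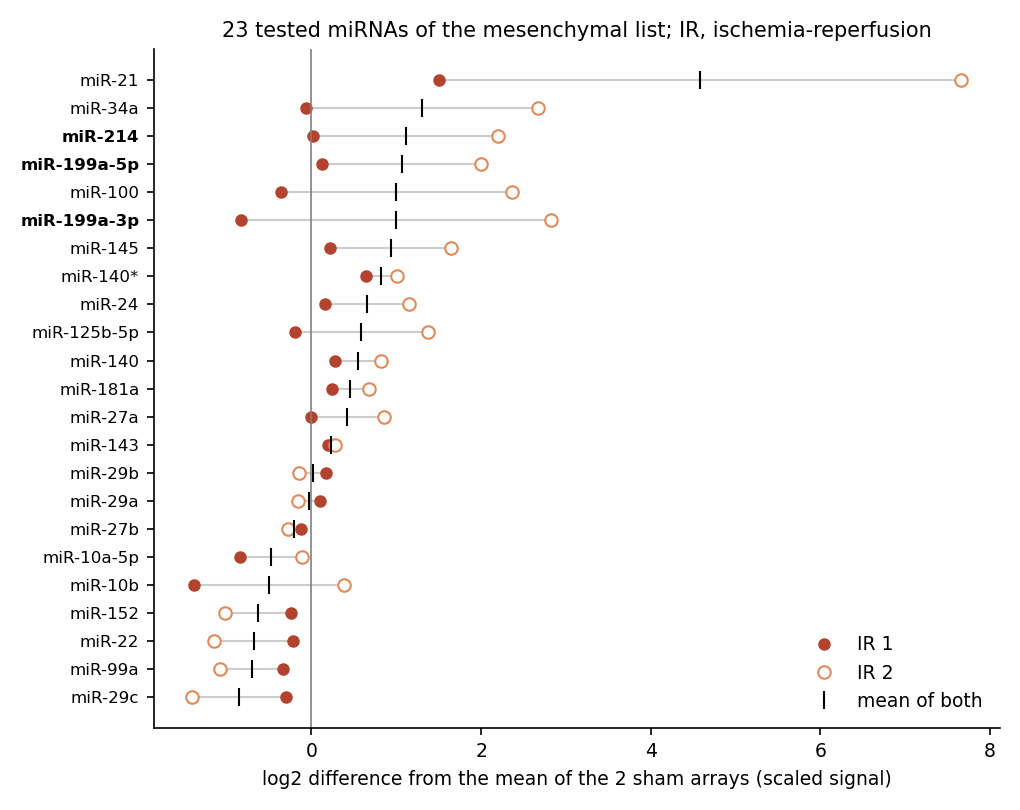
Log2 difference in scaled signal from the mean of both sham arrays for the 23 tested miRNAs of the mesenchymal list, with ischemia-reperfusion (IR) replicate 1 as filled circles, replicate 2 as open circles and their mean as a bar. The 3 cluster miRNAs (bold) have replicate 1 near or below 0 and replicate 2 between 2.00 and 2.82.

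Markers of other cells were set beside the 3 miRNAs, and their orders of arrays differed. The summed signal of miR-199a-5p, miR-199a-3p and miR-214, as a percentage of each array's 75th percentile, was 34.1% and 249% on ischemia-reperfusion replicates 1 and 2, against 59.2% and 36.9% on sham replicates 1 and 2. On the same scale the 2 smooth muscle miRNAs summed to 152% and 167% on the ischemia-reperfusion arrays, against 116% and 153% on the sham arrays, and the second of those ischemia-reperfusion arrays did not detect miR-145. The endothelial miR-126 gave 227 and 35.1 units on ischemia-reperfusion replicates 1 and 2, against 4275 and 230 units on sham replicates 1 and 2. Before scaling, like miR-199a-3p, it was thus many times higher on sham replicate 1 than on sham replicate 2. This was not particular to endothelium: miR-10b of the mesenchymal list gave 1738 and 78.3 units on sham replicates 1 and 2, and the muscle miR-1 90039 and 8359 units. Of the 145 miRNAs that both sham arrays detected, 95.2% had a smaller difference between them than miR-199a-3p. Scaled, miR-126 and miR-126* summed to 23.5% and 47.1% on the ischemia-reperfusion arrays, against 131% and 20.1% on the sham arrays. Only sham replicate 1 detected miR-126*. The 4 leukocyte miRNAs summed to 413% and 35.9% on the ischemia-reperfusion arrays, against 28.6% and 423% on the sham arrays; ischemia-reperfusion replicate 2 did not detect 2 of the 4 and sham replicate 1 did not detect 1. The 7 epithelial miRNAs summed to 35.2% and 632% on the ischemia-reperfusion arrays, against 0.0468% and 1.39% on the sham arrays. The 35.2% comes almost wholly from miR-205 (225 units) and miR-200c (122 units), whose scanner errors of 2.50 and 2.47 units are out of proportion to these signals, while the other 5 were below detection there. The muscle miRNAs summed to 9115% and 12.6%, against 6270% and 9655%, in the same order of arrays. The array with the highest scaled levels of all 3 cluster miRNAs was thus the one with undetected muscle miRNAs and the highest sum of epithelial miRNAs. Being higher there is common after this scaling. Over the miRNAs detected on both arrays compared, its median log2 difference was 1.37 from sham replicate 1, 1.35 from sham replicate 2 and 1.34 from ischemia-reperfusion replicate 1. The part of any of these cell types in the cluster's levels was not tested.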

How the data were processed

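Per the submitters' processing notes, the scanner software was Agilent Feature Extraction 9.5.3; the array design is not given in the sources used here. Per the file headers, the deposited values are the total signal intensity of each miRNA, its scanner error and a detection flag. The intensities are linear, background-subtracted and not scaled between arrays. The series' deposited value table held the same intensities (0 of 1488 values differed), uncentred, with column medians of 5.53 and 2.90 units for ischemia-reperfusion and 11.3 and 7.60 units for sham.

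Here 22 control features were left out, signals were divided by each array's 75th percentile of the 78 commonly detected miRNAs, floored at the lowest scaled detected signal, and log2 was taken. The 159 miRNAs detected on both arrays of a group were fitted with limma 3.58.1 in R 4.3.3 (two-sided, Benjamini-Hochberg over all 159). The fit was tried on simulated data with the same spread for all miRNAs and arrays. That setting has no deviating array, so it does not cover the disparity between replicates seen here. Exact permutation tests used SciPy 1.17.1. The series text calls the samples of a group biological replicates, but animals are not named, so p-values measure only the spread between these samples.

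The named miRNAs were the 3 members, the 6 nearest in pattern, the mesenchymal list with its 6 of highest level, and preset markers of other cells. Members and lists were chosen with earlier results of these data known. Alternatives were other scalings, filters, floors and variance models, the replicate number as a block, and each array left out.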

Additional observations from a re-analysis of the deposited data

How the results depend on the processing

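The log2 differences of miR-199a-5p, miR-199a-3p and miR-214 passed the threshold under none of 15 alternatives each, with limma adjusted p from 0.168 to 0.997. With the percentile of all miRNAs they fell to 0.29, 0.23 and 0.34, and with the median scaling to 0.51, 0.45 and 0.56. Quantile normalization gave 0.46, 0.80 and 0.36. Without scaling they turned to −1.65, −1.72 and −1.61, and with each array left out they ran from 0.12 to 2.00, −0.83 to 2.82 and 0.0139 to 2.20. The number of miRNAs called was 2 without scaling and ran from 0 to 11 with each array left out (11 without ischemia-reperfusion replicate 1). Leaving out an array leaves its group with 1 sample, assumed to vary like the other group, so these 4 fits say little about stability. None of the 3 was among those called. The median of the mesenchymal list turned to −0.31 with the percentile of all miRNAs (8 positive), −0.0928 with the median scaling, −7.14e-05 with quantile normalization and −2.26 without scaling (1 positive), and the median of all tested miRNAs to −0.31, −0.0951, −0.35 and −2.18 under the same 4 scalings. With each array left out the median of the list ran from −0.0113 to 0.82 and that of all tested miRNAs from 0.0561 to 0.76. The log2 ratio differences ran, likewise, from −0.26 to 0.16 for miR-199a-5p over miR-214, −1.30 to 1.17 for miR-199a-3p over miR-199a-5p and −1.14 to 0.91 for miR-199a-3p over miR-214, the last 2 added after the data were seen. The causes were not tested. Same-numbered replicates had deviations correlated at r = 0.0973 over 159 miRNAs, and with the replicate block the differences stayed at 1.06, 1.00 and 1.11 with an adjusted p of 0.863 and 0 miRNAs called. All 3 miRNAs were above background on every array, so signal over background bounds none of their values.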
